A study of Mus musculus with 8 samples.

Results

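The 10 genes described here belong to the antioxidant response that is governed by the transcription factor NRF2. They were chosen by name, with earlier results of these data known but by no rule on their values, and comprise the regulators Nfe2l2 and Keap1 and the target genes Slc7a11, Gclc, Gclm, Srxn1, Prdx1, Txnrd1, Nqo1 and Hmox1. All 10 were found among the 55487 identifiers of the count file, and all 10 were among the 12060 genes with enough counts to be tested. Muscle stem cells (MuSCs), gated as CD34+ and integrin α7+ cells without CD31, CD45, CD11b and Sca1, were sorted from the hindlimbs of aged male wild-type C57BL/6JRj mice, labelled Old, and cultured in growth medium for 72 hours with 1% DMSO as vehicle or with the combination of nicotinamide and pyridoxine (NAM/PN), labelled 1 mM without separate amounts for the vitamins. The 8 mice were combined into 4 pools of 2 mice. Each pool gave 1 library per treatment, hence 4 vehicle and 4 NAM/PN libraries, all from aged mice, so that neither young mice nor single vitamins entered the comparison. The QuantSeq libraries count the 3′ end of transcripts and held between 6472484 and 10163101 reads on genes. Vehicle replicate 3 and NAM/PN replicate 4 stood apart, with a chi-square per degree of freedom between 68.0 and 87.4 and between 70.7 and 82.4 against the other libraries of their groups, which among themselves had between 24.2 and 29.5 and between 23.7 and 26.5. With all 8 libraries 3 of the 10 genes passed the test (Srxn1, Slc7a11 and Hmox1), and 154 of 12060 tested genes did. Without vehicle replicate 3 it was 3 of the 10 (Srxn1, Slc7a11 and Gclm) and 156 of 12559. Without NAM/PN replicate 4 it was 2 (Srxn1 and Slc7a11) and 177 of 12679. Without vehicle replicate 4 it was 0 and 87 of 12528, and without NAM/PN replicate 1 it was 0 and 92 of 12566.

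NRF2, encoded by Nfe2l2, is a transcription factor that the adaptor protein KEAP1 binds in the cytoplasm and presents to a CUL3 ubiquitin ligase for degradation. Oxidants and electrophiles modify cysteines of KEAP1, whereupon NRF2 escapes degradation, enters the nucleus and pairs with small MAF proteins on antioxidant response elements (AREs). NRF2 is therefore controlled in large part at the level of protein, which RNA counts do not show. Its target genes supply cysteine and glutathione, reduce peroxiredoxins and thioredoxin, detoxify quinones and break down heme, and the pathway is known to bear on the survival and differentiation of myogenic progenitors under oxidative stress.

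The promoters of these genes were examined for the letters of short elements, since AREs are the means by which NRF2 reaches its targets. A RefSeq promoter sequence on GRCm38.p6 was at hand for 8 of the 10 genes, Txnrd1 with 3 starts, and the 240 bases that end 10 bases before the start were read on both strands. The promoters of Srxn1 and Slc7a11 are shown in full, 5′ to 3′ in the direction of the gene, with all matched elements in capitals. These are the members called higher with NAM/PN in the main test described below, although the call of Slc7a11 was lost when the pools were entered as a replicate block. The Srxn1 window lies on the plus strand at chr2:152105274-152105513 and the Slc7a11 window on the minus strand at chr3:50443624-50443863.
Srxn1: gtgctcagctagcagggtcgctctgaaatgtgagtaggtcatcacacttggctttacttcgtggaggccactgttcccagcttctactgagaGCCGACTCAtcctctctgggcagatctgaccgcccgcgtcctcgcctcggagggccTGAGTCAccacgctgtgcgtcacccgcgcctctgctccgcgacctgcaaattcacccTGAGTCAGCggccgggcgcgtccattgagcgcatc
Slc7a11: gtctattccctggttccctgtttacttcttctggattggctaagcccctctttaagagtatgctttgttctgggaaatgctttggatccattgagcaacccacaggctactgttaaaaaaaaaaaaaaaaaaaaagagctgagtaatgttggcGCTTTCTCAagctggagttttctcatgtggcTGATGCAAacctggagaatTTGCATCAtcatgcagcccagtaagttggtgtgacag
In the Srxn1 window, the AP-1 element TGANTCA occurred at 102 and at 45 bases before the start (first base of each match), and the match nearer the start was part of TGAGNNNGC, a form of the ARE core with G at the fourth letter that was added to the search after the sequences were read. A further TGAGNNNGC lay on the opposite strand at 158 bases before the start. The Slc7a11 window held TGATGNAA, the element of amino acid response (CARE) bound by ATF4 and C/EBP proteins, at 66 bases and, on the opposite strand, at 47 bases before the start, and TGAGNNNGC on the opposite strand at 97 bases. Over all 32851 RefSeq windows of the same length, 6.58% held TGANTCA and 0.317% held it at least 2 times, 3.37% held TGATGNAA and 0.0304% held it at least 2 times, and 13.8% held TGAGNNNGC and 1.15% held it at least 2 times.

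The ARE core with C, TGACNNNGC, was found in the windows of Prdx1, Gclm, Nfe2l2 and the second start of Txnrd1, and in 9.67% of all windows. For these matches 30 bases are shown, again with matched letters in capitals, at chr4:116685456-116685485 (plus strand), chr3:122245413-122245442 (plus), chr2:75704884-75704913 (minus) and chr10:82859104-82859133 (plus).
Prdx1: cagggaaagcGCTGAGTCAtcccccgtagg
Gclm: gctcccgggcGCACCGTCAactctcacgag
Nfe2l2: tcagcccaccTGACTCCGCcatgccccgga
Txnrd1: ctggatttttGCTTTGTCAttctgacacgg
The Prdx1 match, at 133 bases before the start, overlapped a TGANTCA match, and a second TGANTCA lay at 237 bases. None of these letters occurred in the windows of Nqo1 and Keap1. Such matches describe the letters of a short window and not the binding of a factor, and a window without a match leaves more distant elements unread.

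**Figure D1:**
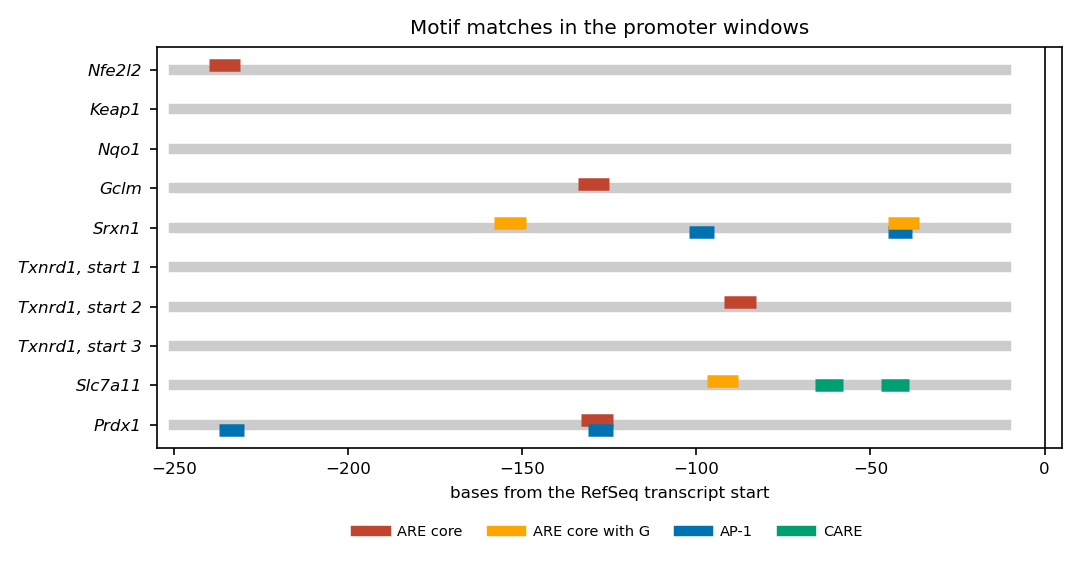
Positions of the matched elements (colored bars) in the promoter windows (gray) of 8 of the 10 genes, with the x axis in bases from the RefSeq transcript start at 0 and Txnrd1 drawn once for each of its 3 starts. Srxn1 and Prdx1 each held the AP-1 letters at 2 places, and the windows of Nqo1 and Keap1 held no match.

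NAM/PN was compared with vehicle to learn how the treatment alters the transcripts of aged MuSCs. Among the 10 genes, Srxn1 and Slc7a11 rose, Hmox1 fell, and the transcripts of the regulators NRF2 and KEAP1 did not pass the test. Values are CPM, reads scaled to the normalized library size, and a gene is called at an adjusted p under 0.05 in edgeR (quasi-likelihood test, Benjamini-Hochberg adjusted over the 12060 tested genes). By this rule 3 of the 10 members were called, against 1.28% of all tested genes (0.282% higher and 0.995% lower). At an unadjusted p under 0.05 in the same edgeR fit stood 6 of the 10 members, against 9.28% of all tested genes, and 5 of them were higher, against 3.96%. The vehicle and NAM/PN libraries did not overlap for 4 members (Srxn1, Slc7a11, Nqo1 and Hmox1), against 7.21% of all tested genes, and 3 of these 4 were higher with NAM/PN, against 2.79%. Fitted log2 fold changes were above 0 for 8 of the 10 members, with a median of 0.33, and above 0 for 49.8% of all tested genes, with a median of -0.0022. With the pool as a replicate block, 1 of the 10 members, Srxn1, was called, although 1.29% of all genes were. In RNA from whole cultures, fewer cells of a type and less RNA per cell cannot be told apart.

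**Figure D2:**
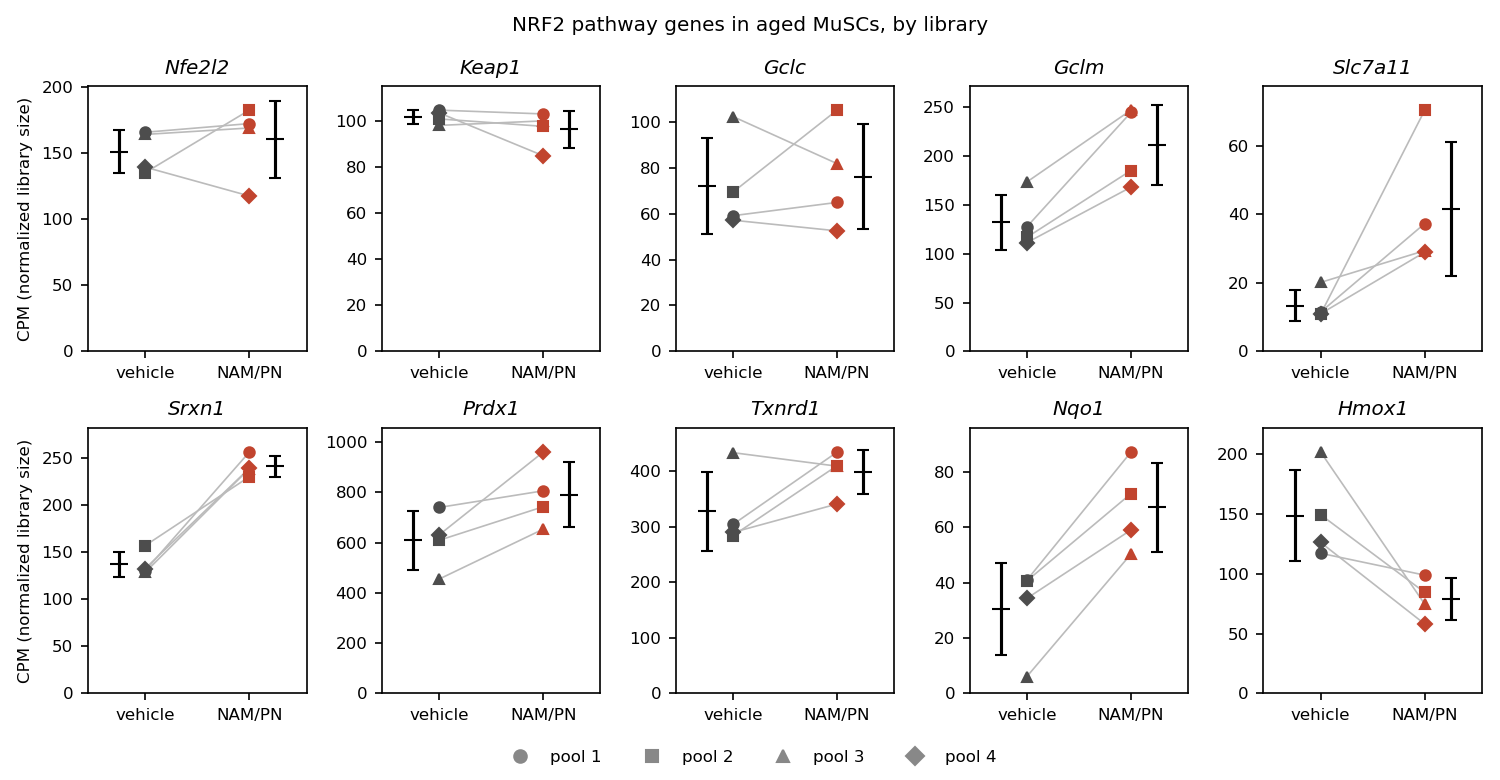
CPM of the 10 genes in each library (y axis, from 0), with vehicle in gray and NAM/PN in red, one marker shape per pool, lines joining the libraries of a pool, and black bars for the mean ± SD (n = 4). All 4 NAM/PN libraries lay above all vehicle libraries for Srxn1, Slc7a11 and Nqo1, and below them for Hmox1.

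The regulators were examined first. Nfe2l2 (ENSMUSG00000015839, chromosome 2 of GRCm38 from 75675513 to 75704641) had 166, 135, 164 and 139 CPM in vehicle libraries 1 to 4 and 172, 183, 169 and 118 CPM in NAM/PN libraries 1 to 4. The groups overlapped, and NAM/PN replicate 4 held the lowest and NAM/PN replicate 2 the highest value. The log2 fold change of Nfe2l2 was 0.085 (standard error 0.19, adjusted p = 0.969 in edgeR), with a 95% interval from 0.81-fold to 1.39-fold. Its direction was not settled, as the fitted value without pool 2 was -0.033.

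Keap1 (ENSMUSG00000003308, chromosome 9 from 21229730 to 21239361) lay between 97.9 and 105 CPM with vehicle and between 84.8 and 103 CPM with NAM/PN. The 4 vehicle libraries were close to one another, and only NAM/PN replicate 4, at 84.8 CPM, lay apart from the range of 97.5 to 105 CPM spanned by the other 7 libraries. Its log2 fold change was -0.079 (standard error 0.18, adjusted p = 0.970 in edgeR), with a 95% interval from 0.727-fold to 1.23-fold.

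The next 3 genes serve the supply of glutathione, the main small thiol of the cell. Slc7a11 (ENSMUSG00000027737, chromosome 3 from 49892526 to 50443614) encodes xCT, the subunit of the cystine-glutamate exchanger that carries cystine into the cell. It had 11.5, 10.9, 20.1 and 11.0 CPM in vehicle libraries 1 to 4, corresponding to between 88 and 163 reads, and 37.3, 70.4, 29.4 and 29.0 CPM in NAM/PN libraries 1 to 4, corresponding to between 193 and 505 reads. Each NAM/PN library was above each vehicle library, with NAM/PN replicate 2 far above the others of its group and vehicle replicate 3 above the others of its own.
Slc7a11 rose 3.10-fold with NAM/PN (log2 fold change 1.63, standard error 0.38, adjusted p = 0.0327 in edgeR), the largest fitted change of the 10 genes, and was higher in 4 of 4 pools, by between 0.54 and 2.66 on the log2 CPM scale. With the replicate block its adjusted p was 0.0644. The call was kept without vehicle replicate 3 or NAM/PN replicates 3 or 4, and lost without vehicle replicates 1, 2 or 4 or NAM/PN replicates 1 or 2, with adjusted p-values in edgeR between 0.019 and 0.216 and log2 fold changes between 1.25 (without NAM/PN replicate 2) and 1.89 (without vehicle replicate 3). With a whole pool left out it was called only without pool 3 (log2 fold change 2.03, adjusted p = 0.026 in edgeR), and without pool 2 the log2 fold change was 1.17.
NAM/PN replicates 1 and 2, the libraries with the most Slc7a11, also had the most Col1a1, a collagen gene of fibroblasts and other stromal cells, at 486 and 1032 CPM against between 1.74 and 41.3 CPM in the other 6 libraries. Of 10 markers of fibro-adipogenic progenitors, Pdgfra, Lum, Dpt and Mfap5 had 0 counts in all libraries, and Col3a1 was called lower. The summed level was between 227 and 328 CPM with vehicle and between 117 and 1168 CPM with NAM/PN. With vehicle it came mainly from Col3a1, between 149 and 166 CPM, and Cd34, between 74.0 and 120 CPM. The MuSCs were themselves gated as CD34+, so that Cd34 does not set stromal cells apart here. The 2 NAM/PN libraries with little Col1a1, at 29.4 and 29.0 CPM of Slc7a11, were also above all vehicle libraries. The sort had left out Sca1+ cells, which include fibro-adipogenic progenitors, and the part of stromal cells in the change of Slc7a11 was not tested.

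Glutamate-cysteine ligase, the rate-limiting enzyme of glutathione synthesis, consists of a catalytic subunit encoded by Gclc and a modifier subunit encoded by Gclm. Gclm (ENSMUSG00000028124, chromosome 3 from 122245557 to 122270732) had 128, 117, 173 and 111 CPM with vehicle and 245, 185, 247 and 168 CPM with NAM/PN in libraries 1 to 4. Values were higher with NAM/PN in 4 of 4 pools, but vehicle replicate 3 exceeded NAM/PN replicate 4, so that the groups overlapped. The log2 fold change of Gclm was 0.68 (standard error 0.20), and its adjusted p in edgeR was 0.127, above the threshold, and 0.0956 with the replicate block. Without vehicle replicate 3 the adjusted p was 0.0349 and the log2 fold change 0.83.
Gclc (ENSMUSG00000032350, chromosome 9 from 77754535 to 77794485) had 59.1, 69.4, 102 and 57.1 CPM with vehicle and 64.9, 105, 81.8 and 52.5 CPM with NAM/PN in libraries 1 to 4. The groups covered nearly the same range, and 2 of 4 pools were higher. Its fitted log2 fold change was 0.079, with a standard error of 0.25 and an adjusted p of 0.985 in edgeR, and turned to -0.0066, -0.12 and -0.026 without vehicle replicate 1, NAM/PN replicate 2 and vehicle replicate 4, so that no direction can be given. The 95% interval of Gclc ran from 0.731-fold to 1.53-fold and that of Gclm from 1.20-fold to 2.13-fold, and the difference between the changes of the subunits was not tested.

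The peroxiredoxin and thioredoxin system was represented by Srxn1, Prdx1 and Txnrd1. Srxn1 (ENSMUSG00000032802, chromosome 2 from 152105516 to 152111376) encodes sulfiredoxin, which returns hyperoxidized peroxiredoxins to their active form. Its values were 130, 157, 129 and 133 CPM in vehicle libraries 1 to 4 and 256, 230, 239 and 239 CPM in NAM/PN libraries 1 to 4. The groups were well apart, with the lowest NAM/PN library 73.1 CPM above the highest vehicle library, and both groups were narrow.
Srxn1 rose 1.76-fold, from 137 ± 13.3 to 241 ± 11.0 CPM (SD, n = 4 each), in 4 of 4 pools. The log2 fold change was 0.81 (standard error 0.16, adjusted p = 0.0126 in edgeR, and 0.0298 with the replicate block), and it had the smallest p-value of the 10 genes. The call was lost without NAM/PN replicate 1 (log2 fold change 0.78, adjusted p = 0.0618) and without vehicle replicate 4 (log2 fold change 0.79, adjusted p = 0.0731) and kept without each of the other 6 libraries. When both libraries of a pool were left out, the log2 fold change lay between 0.76 and 0.91 and the adjusted p in edgeR between 0.0533 and 0.174, so that the call was lost without each of the 4 pools.

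Prdx1 (ENSMUSG00000028691, chromosome 4 from 116685544 to 116700822) encodes an abundant cytosolic peroxiredoxin, which reduces hydrogen peroxide. It had 740, 609, 455 and 631 CPM with vehicle and 806, 743, 654 and 960 CPM with NAM/PN in libraries 1 to 4. Values were higher in 4 of 4 pools, while the groups overlapped, with pool 3 the lowest with both treatments. The log2 fold change of Prdx1 was 0.38 (standard error 0.17), with an adjusted p of 0.496 in edgeR.
Txnrd1 (ENSMUSG00000020250, chromosome 10 from 82833951 to 82897712) encodes the cytosolic thioredoxin reductase, which recharges thioredoxin with electrons from NADPH. Its vehicle libraries had 304, 284, 433 and 289 CPM and its NAM/PN libraries 434, 409, 409 and 341 CPM. Vehicle replicate 3 was nearly as high as the highest NAM/PN library, and the other 3 vehicle libraries lay below all NAM/PN libraries. The log2 fold change was 0.28 (standard error 0.17, adjusted p = 0.727 in edgeR), and without vehicle replicate 3 it was 0.44 with an adjusted p of 0.253. Txnrd1 spans Eid3 on the same strand, which had 181 reads in all libraries against 23807 for Txnrd1.

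Nqo1 (ENSMUSG00000003849, chromosome 8 from 107388225 to 107403206) encodes NAD(P)H quinone dehydrogenase, which reduces quinones and is widely used as a readout of NRF2 activity. It had 40.9, 40.6, 6.05 and 34.3 CPM in vehicle libraries 1 to 4 and 87.0, 72.0, 50.3 and 58.9 CPM in NAM/PN libraries 1 to 4. Every NAM/PN library was above every vehicle library, and vehicle replicate 3, with 49 reads against between 315 and 345 in the other vehicle libraries, was by far the lowest. The log2 fold change was 1.14 (standard error 0.40, a 95% interval from 1.23-fold to 3.93-fold), higher in 4 of 4 pools, and the adjusted p of 0.261 in edgeR did not pass the threshold. With the replicate block the adjusted p was 0.0661, and without vehicle replicate 3 the log2 fold change was 0.79 with an adjusted p of 0.212.

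Hmox1 (ENSMUSG00000005413, chromosome 8 from 75093621 to 75100589) encodes heme oxygenase 1, which breaks heme into iron, carbon monoxide and biliverdin, and which is under the control of NRF2 and of the repressor BACH1. It had 117, 149, 201 and 126 CPM in vehicle libraries 1 to 4 and 98.7, 84.3, 74.5 and 57.9 CPM in NAM/PN libraries 1 to 4. All NAM/PN libraries lay below all vehicle libraries, with vehicle replicate 3 the highest and a small distance between vehicle replicate 1 and NAM/PN replicate 1, both from pool 1.
Hmox1 fell by 0.91 on the log2 scale, to 0.531-fold of vehicle (standard error 0.22, adjusted p = 0.0459 in edgeR), and was lower in 4 of 4 pools, by between 0.24 and 1.43 on the log2 CPM scale. It was the only one of the 10 genes called lower. The call was close to the threshold, with an adjusted p of 0.0552 under the replicate block and 0.0518 in voom with quality weights, and it was kept without vehicle replicate 1 but lost without each of the other 7 libraries, with log2 fold changes between -1.04 and -0.74 and adjusted p-values in edgeR of at most 0.143. It was also lost without each of the 4 pools (adjusted p between 0.0708 and 0.297).
Macrophages can express much Hmox1. The sort had left out CD45+ and CD11b+ cells, and of 12 markers of macrophages and other leukocytes 8 (Ptprc, Adgre1, C1qa, C1qb, Lyz2, Csf1r, Itgam and Tyrobp) had 0 counts in all libraries. The summed level of the 12 markers was between 4.94 and 19.8 CPM with vehicle and between 5.14 and 10.8 CPM with NAM/PN. Of 20 markers of differentiating myocytes 14 were called lower with NAM/PN, against 0.995% of all tested genes. Their summed level went from between 2236 and 4363 CPM with vehicle to between 583 and 1383 CPM with NAM/PN. Of the 10 markers of satellite cells and myoblasts, among them Pax7 and Myod1, 9 were tested and 0 called in edgeR (1 at an unadjusted p under 0.05), with a summed level between 3002 and 3462 CPM with vehicle and between 2452 and 3011 CPM with NAM/PN. Of the 10 markers of mural cells Acta2, which differentiating myogenic cells also express, was called lower, Myh11 had 0 counts in all libraries, and the summed level was between 291 and 619 CPM with vehicle and between 109 and 156 CPM with NAM/PN. Of 10 endothelial markers 1 had enough counts to be tested, Flt1, Emcn and Cldn5 had 0 counts in all libraries, and the sum was between 3.46 and 27.0 CPM with vehicle and between 9.85 and 29.6 CPM with NAM/PN. The part of cell composition in the changes of the 10 genes was not tested.

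**Figure D3:**
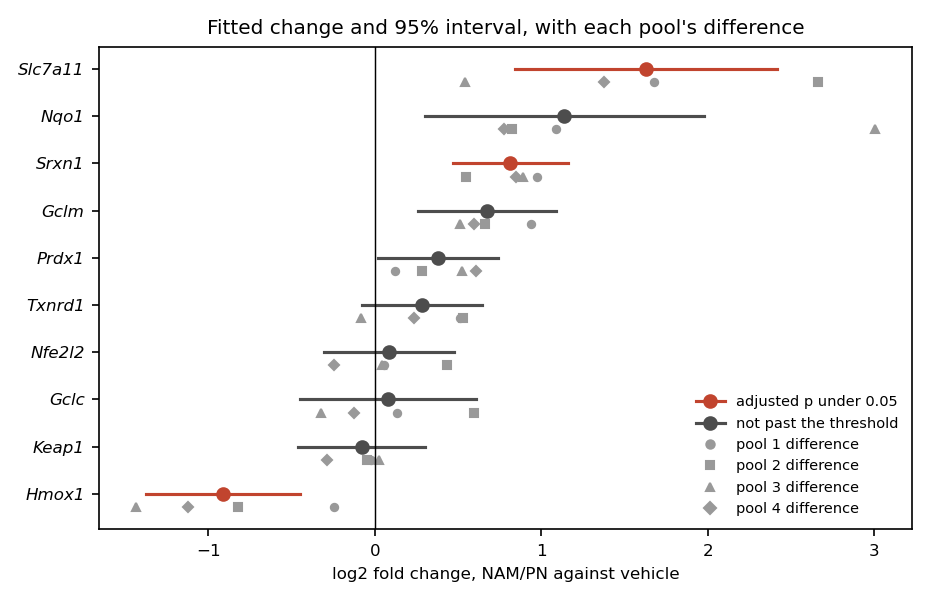
Fitted log2 fold change of NAM/PN against vehicle (x axis) for the 10 genes, with points and lines for the estimate and its 95% interval in edgeR, red for an adjusted p under 0.05, and small gray markers for the difference within each pool on the log2 CPM scale. The 4 pool differences lay on one side of 0 for Slc7a11, Nqo1, Srxn1, Gclm, Prdx1 and Hmox1 and on both sides for Txnrd1, Nfe2l2, Gclc and Keap1.

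Vehicle replicate 3 differed from the other vehicle libraries in several of these genes. It was the highest vehicle library for Hmox1, Gclc, Gclm, Txnrd1 and Slc7a11 and the lowest for Nqo1, Prdx1, Srxn1 and Keap1, although for Srxn1 and Keap1 it lay close to the next vehicle library. A ribosomal RNA gene, CT010467.1, took 18.7% of its reads, against between 5.22% and 11.6% in the other 7 libraries, and leaving that gene out of all libraries changed the call of 0 of the 10 members. NAM/PN replicate 4 was the lowest NAM/PN library for Nfe2l2, Keap1, Hmox1, Gclc, Gclm, Txnrd1 and Slc7a11 and the highest for Prdx1. It had the smallest share of that ribosomal RNA gene, 5.22%, and the fewest genes with a read, 12483 against between 12939 and 14472. Without it the calls of Srxn1 (log2 fold change 0.82) and Slc7a11 (1.77) were kept, that of Hmox1 (-0.79) was lost, and Nfe2l2 had a log2 fold change of 0.21.

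Further genes of the pathway were read from 8 lists of regulators, enzymes and transporters, 127 genes in all, of which 107 were tested. Of these, 5 rose (Gsta4, Blvrb, Tkt, Ptgr1 and Prdx6) and 1 fell (Gpx3), against 0.282% of all tested genes called higher and 0.995% called lower. A log2 fold change above 0 was found for 61 of the 107, with a median of 0.14, against 49.8% of all tested genes, with a median of -0.0022. By list, the median was below 0 for regulators and partners (-0.14), glutathione genes (-0.15) and efflux pumps (-0.38), and above 0 for the others. One list held 7 enzymes linked to the supply of NADPH, the electron donor for glutathione and thioredoxin reductase. Of these G6pdx, Pgd, Me1 and Idh1 encode enzymes that make NADPH, and Tkt, Taldo1 and Pgls encode other enzymes of the pentose phosphate pathway. All 7 had a log2 fold change above 0 (median 0.55), against 49.8% of all tested genes. Of the 7, 4 (Tkt, Taldo1, Pgls and Pgd) had an unadjusted p under 0.05 in edgeR, against 9.28%. Among these 4, only Pgd encodes an enzyme that makes NADPH. G6pdx, Me1 and Idh1 had log2 fold changes of 0.19, 0.33 and 0.18, with unadjusted p-values in edgeR of 0.465, 0.307 and 0.576. Tkt alone was called, and it is not one of the enzymes that make NADPH. Tkt, the gene of transketolase, had 35.4, 35.2, 46.1 and 40.8 CPM in vehicle libraries 1 to 4 and 94.5, 77.9, 96.1 and 88.9 CPM in NAM/PN libraries 1 to 4, and rose by 1.18 on the log2 scale (standard error 0.21, adjusted p = 0.00516 in edgeR). The call of Tkt was lost without pool 1 (adjusted p = 0.0924 in edgeR) and without pool 2 (0.0725).

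In the list of heme breakdown and iron storage, which leaves out Hmox1 as a member, Blvrb was the gene called. Blvrb encodes biliverdin reductase B, also known as flavin reductase, and it had between 23.7 and 35.5 CPM with vehicle and between 69.0 and 105 CPM with NAM/PN (log2 fold change 1.57, standard error 0.24, adjusted p = 0.00143 in edgeR). The genes of the ferritin chains, Fth1 and Ftl1, named here after their values were seen, had log2 fold changes of 0.31 and 0.39 and were not called, with adjusted p-values of 0.553 and 0.608 in edgeR. Of the 10 genes of this list 1 was called higher and 0 lower (median log2 fold change 0.27).

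In the thioredoxin and peroxiredoxin list, 1 of 16 tested genes was called. This was Prdx6, a peroxiredoxin that uses glutathione, which rose from 360 ± 32.3 to 654 ± 175 CPM (SD, 4 libraries in each group) by 0.86 on the log2 scale (standard error 0.18, adjusted p = 0.0153 in edgeR). Its call was lost without NAM/PN replicate 1, vehicle replicate 2 or vehicle replicate 4, with adjusted p-values in edgeR of 0.0532, 0.083 and 0.085, and without pools 1, 2 or 4 (0.104, 0.135 and 0.108). Of 24 tested glutathione transferases and detoxification enzymes 2 rose, Ptgr1 by 0.93 on the log2 scale (standard error 0.17, adjusted p = 0.00559 in edgeR) and Gsta4 by 2.70 (standard error 0.26, adjusted p = 8.07e-06 in edgeR), the largest fitted change of the 107. Gsta4, whose product conjugates glutathione to lipid peroxidation products, had 15.6, 23.9, 26.8 and 19.3 CPM in vehicle libraries 1 to 4 and 185, 140, 89.8 and 142 CPM in NAM/PN libraries 1 to 4. Ptgr1 encodes prostaglandin reductase 1, which also reduces reactive aldehydes, and lay between 451 and 796 CPM with vehicle and between 1100 and 1295 CPM with NAM/PN.

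In the glutathione list, 1 of 16 tested genes was called, and it fell. Gpx3, a glutathione peroxidase that cells secrete, had 129, 135, 145 and 112 CPM in vehicle libraries 1 to 4 and 49.0, 59.5, 41.0 and 65.8 CPM in NAM/PN libraries 1 to 4 (log2 fold change -1.28, standard error 0.21, adjusted p = 0.00219 in edgeR). In the remaining 3 lists 0 genes were called, and the smallest p-values belonged to Nfe2l1 among 14 regulators and partners (log2 fold change -0.44, adjusted p = 0.466 in edgeR), to Abcc1 among 5 efflux pumps (0.36, adjusted p = 0.690) and to Sod1 among 15 superoxide dismutases and other genes (0.44, adjusted p = 0.248). Unadjusted p-values under 0.05 in edgeR were found for 1 of the 14, 0 of the 5 and 2 of the 15 genes, against 9.28% of all tested genes. Without pool 2, the number called over the 8 lists was 2 in place of 6, with Gpx3 (adjusted p = 0.0524 in edgeR) and Ptgr1 (0.135) also lost. Over all tested genes the number called then was 42 of 12142, in place of 154 of 12060. The part of the lower myocyte markers (14 of 20 called lower, against 0.995% of all tested genes) in the changes of the list genes was not tested.

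**Figure D4:**
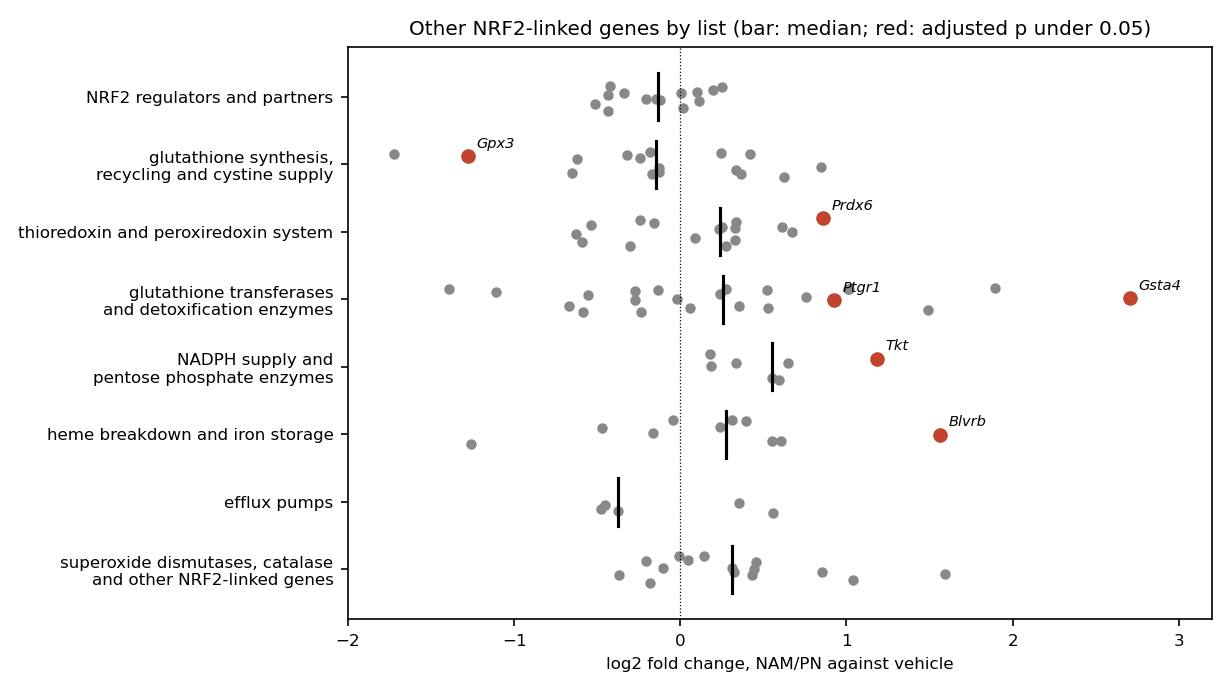
Log2 fold change of NAM/PN against vehicle (x axis) for the 107 other tested genes of the pathway in 8 lists, with 1 point per gene, red and named where the adjusted p in edgeR was under 0.05, and a black bar for the median of each list. The 7 genes of the NADPH list all lay above 0, the medians of the regulator, glutathione and efflux pump lists lay below 0, and 5 of the 6 called genes were higher.

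Of all tested genes outside the 10, those whose log2 CPM over the 8 libraries ran most like that of Srxn1 were Gm16310, Nptx1 and Gm8899, with Pearson's r of 0.98, 0.97 and 0.97. Since the 8 libraries form 2 treatment groups, such values reflect the difference between the groups as well as the spread within them. Gm16310 and Gm8899 had at most 10.3 and 3.35 CPM in any library and were not called (adjusted p = 0.135 and 0.645 in edgeR). Nptx1, which encodes the secreted neuronal pentraxin 1, lay between 56.2 and 86.9 CPM with vehicle and between 268 and 326 CPM with NAM/PN.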

How the data were processed

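QuantSeq 3′ mRNA libraries of 8 MuSC cultures were read by the authors with RNASTAR on GRCm38 and HTSeq 2.16.2, and they deposited raw read counts per Ensembl gene, not normalized. The annotation release, the strand setting and the treatment of reads that map to several places were not given in the sources used here. The table held no column of other samples, and symbols were found for 55141 of its 55487 identifiers in a table of gene names, with positions from GENCODE annotation of the same build.

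Genes were kept by edgeR's filterByExpr (minimum count 10, minimum total count 15), libraries were scaled by TMM, and NAM/PN was tested against vehicle with the quasi-likelihood test of edgeR 4.0.16 in R 4.3.3, two-sided, with Benjamini-Hochberg adjustment over 12060 genes. Log2 CPM used a prior count of 2. Intervals are at a level of 95%. A count of 0 allows up to 3 reads, between 0.295 and 0.464 CPM per library, and this floor covers counting error only. Scripts were tested on simulated data.

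The members, lists and markers were chosen with earlier results of these data known. Named were the 10 members, each called gene of the 8 lists, the gene with the smallest p in lists without a call, and the 3 genes most like the member with the smallest p. Beyond this rule, Fth1, Ftl1 and the 6 uncalled genes of the NADPH list were named after their values were seen. The labels give the libraries of a pool the same mice, so replicate numbers pair the samples; the deviations of paired libraries from their group means correlated between -0.0332 and 0.0313 over genes in the 4 pools, and the fit with the pool as a replicate block is given where it changed a call. Nothing in the labels gives a batch. The p-values of the main fit leave the pairing aside and measure the spread between libraries of a treatment, each from another pool. Those with the replicate block measure the spread of the differences within pools. No library repeated another (lowest chi-square per degree of freedom 23.7).

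Alternatives were the block, RLE scaling, DESeq2 1.42.0, voom with quality weights and duplicateCorrelation in limma 3.58.1, no filter, a robust fit, a threshold of 0.10, the ribosomal RNA gene left out, each library left out and, chosen after seeing the data, each pool left out. Promoter sequences came from RefSeq (GRCm38.p6) and were searched on both strands.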

Additional observations from a re-analysis of the deposited data

Results flagged for a closer look

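In 3 of the 32 groups of 4 libraries examined (the 2 treatment groups of each of 16 genes, the 10 members and the 6 called list genes), the highest or lowest library stood apart from the other 3 by more than Dixon's 95% critical value, where chance alone would give 1.6. The vehicle library of pool 2 had 157 CPM of Srxn1 against between 129 and 133 CPM in the other vehicle libraries. The vehicle library of pool 3 had 433 CPM of Txnrd1 against between 284 and 304 CPM, and 20.1 CPM of Slc7a11 against between 10.9 and 11.5 CPM. Its low Nqo1 value, 6.05 CPM, stayed just under the critical value.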

How the results depend on the processing

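Over the 7 analysis alternatives other than a changed threshold or left-out libraries, Srxn1 was called in 7, Slc7a11 in 6 and Hmox1 in 5. With the replicate block, 1 of the 10 members was called, with log2 fold changes of -0.91 for Hmox1 (adjusted p = 0.0552) and 1.58 for Slc7a11 (0.0644), and the block changed no other call among the 10 members and the 6 called list genes. In voom, Hmox1 had -0.73 (adjusted p = 0.0518). Without the filter 5 members were called, among 366 of 19244 genes tested, with Gclm at 0.66 (adjusted p = 0.0438) and Nqo1 at 1.12 (0.00554), and Gclm was also called by DESeq2 (0.67, adjusted p = 0.0475) and voom (0.82, 0.00719). The number of genes called among all was 154 of 12060 tested, and 388 by DESeq2, 232 by voom and 244 at a threshold of 0.10. With 1 library left out it lay between 80 and 177 and with 1 pool left out between 42 and 112, over fewer samples. Members called then numbered between 0 and 3, and 0 and 1, and list genes called between 5 and 6, and 2 and 6. The members called were 0 without vehicle replicate 4 or NAM/PN replicate 1 and 1 without vehicle or NAM/PN replicate 2. Over left-out libraries and pools together, log2 fold changes lay between -1.14 and -0.71 for Hmox1, 0.76 and 0.91 for Srxn1, 1.17 and 2.03 for Slc7a11, 0.58 and 0.83 for Gclm, 0.79 and 1.31 for Nqo1, -0.033 and 0.21 for Nfe2l2 and -0.13 and 0.29 for Gclc, which turned without vehicle replicate 1 (-0.0066), vehicle replicate 4 (-0.026), NAM/PN replicate 2 (-0.12) and pool 2 (-0.13). The cause of these differences was not tested. Medians of all genes stayed between -0.0241 and 0.00837. The fewest reads of a member in a library were 49 for Nqo1 and 88 for Slc7a11.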
